A study of Homo sapiens with 8 samples.

Results

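The condensin subunits are the 8 genes SMC2, SMC4, NCAPD2, NCAPG, NCAPH, NCAPD3, NCAPG2 and NCAPH2, taken by gene symbol from the 38148 genes of the deposited HT29 table, where each has 1 row. On GRCh38 they lie on 8 different chromosomes, in that order 9, 3, 12, 4, 2, 11, 7 and 22. HT29 cells derive from a human colorectal carcinoma. They were grown without drug or with 1 μM selumetinib, an inhibitor of the ERK-activating kinase MEK, for 24 h, and after glyoxal fixation were separated by flow sorting on cyclin B1, the protein product of CCNB1. Polyadenylated mRNA of the CCNB1-negative and the CCNB1-positive cells was then sequenced. With and without drug this gave 4 groups, each of 2 libraries and all from this 1 cell line. Cyclin B1 builds up in G2 and is destroyed at the end of mitosis, so a CCNB1-negative fraction of growing cells holds G1 and S cells.

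Condensin is a ring-shaped ATPase that extrudes loops of DNA and compacts chromosomes for mitosis. SMC2 and SMC4 form the ATPase pair shared by both forms of the complex. Condensin I adds the kleisin NCAPH, which closes the ring, and the HEAT-repeat subunits NCAPD2 and NCAPG, whereas condensin II adds the related NCAPH2, NCAPD3 and NCAPG2. Condensin II is found in the nucleus through interphase, and condensin I reaches the chromosomes once the nuclear envelope breaks down.

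The labels of these libraries contradict each other: for all 8, the title gives a treatment and a fraction that are both the reverse of those in the short description. The growth medium label also names the treatment opposite to that of the description. Groups follow the descriptions, which are also the column names of the table. CCNB1 itself checked this choice, with 3238 and 4120 normalised reads in the libraries described as untreated CCNB1-negative, 14140 and 17002 in untreated CCNB1-positive, 242 and 149 in selumetinib-treated CCNB1-negative and 6940 and 5928 in selumetinib-treated CCNB1-positive cells. A normalised read is a read after scaling to the size of the largest library. By the titles, the fraction with the least CCNB1 mRNA would be an untreated CCNB1-positive one, and every response and fraction difference given here would change its sign and its place, while the difference between the 2 responses would stay as it is. DUSP6, a direct output of ERK signalling, ranged from 1512 to 2661 normalised reads in the untreated libraries and from 592 to 948 in the treated ones. The libraries held 12696860 to 23916160 reads on genes. All 9 colorectal epithelial markers had reads in every library, though the transcription factors CDX1 and CDX2 had only 15 to 43 and 40 to 136 before scaling. The 6 markers of blood, endothelial and stromal cells summed to 38 to 50 normalised reads in untreated and 76 to 159 in treated libraries. Of these 6, COL1A1 reached the most, with 6 to 107 reads before scaling.

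In CCNB1-negative cells all 8 subunits fell after selumetinib, where 35.8% of the 14219 genes tested fell, from NCAPD2, which kept 31.2% of its untreated level, to NCAPH, which kept 5.53%. In CCNB1-positive cells 6 of the 8 fell, against 27.3% of all genes tested, none below 42.5% of the untreated level, while SMC2 and SMC4 did not pass the test. In untreated cells the 3 condensin I subunits and SMC4 were higher in the CCNB1-positive fraction, as were 1.36% of all genes tested, by 1.61-fold to 2.46-fold, and the 3 condensin II subunits and SMC2 did not pass the test. In treated cells all 8 were higher in the CCNB1-positive fraction, as were 13.8% of all genes tested, by 2.47-fold for NCAPH2 up to 19.4-fold for NCAPG. These shares come from a fit that does not pair libraries. When libraries of the same treatment and replicate number were paired, 675 of the 14219 genes tested were called higher between untreated fractions. Between treated fractions 3845 were. The labels do not say that replicate numbers pair libraries. Bulk values cannot tell fewer cells that carry a transcript from less of it per cell.

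In CCNB1-negative cells after selumetinib and between the treated fractions, though not in the other 2 comparisons above, all 8 subunits were called in the same direction. The starts of these genes were therefore searched for the letters of the cell cycle genes homology region (CHR). This is a promoter element of many genes that peak in G2 and mitosis. The CHR reads TTTGAA, and TTTAAA is a related form. CCAAT boxes, which often stand upstream of a CHR, were searched as well. Each was looked for on both strands, and none of the 3 strings contains another. RefSeq windows on GRCh38.p14, from 250 bases before to 50 bases after a start, were found for 7 of the 8 genes, with no entry for NCAPH2 (chr22:50508224-50524780). TTTGAA stood in a window of 6 of these 7 genes and in 6 of their 10 windows, against 15.2% of all 35116 windows and 18.2% of all gene symbols. TTTAAA stood in 1 of the 10 windows, that of NCAPH, and in 12.2% of all windows, and CCAAT in 3 of the 10 and in 34.6% of all. A match describes the letters of a window and not a bound site. The stretches that hold the CHR letters are given 5′ to 3′ on the strand of the gene with those letters in capitals, which read TTCAAA where the element lies on the other strand, as in SMC2 and SMC4.

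SMC2 (chr9:104094256-104094328, plus strand, from 3 bases before the start): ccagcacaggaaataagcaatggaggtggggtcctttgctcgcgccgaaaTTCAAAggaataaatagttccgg

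SMC4 (chr3:160399525-160399624, plus strand, from 75 bases before the start): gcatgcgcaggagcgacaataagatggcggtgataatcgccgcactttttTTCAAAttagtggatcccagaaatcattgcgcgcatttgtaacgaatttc

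NCAPD2 (chr12:6493907-6494006, plus strand, from 145 bases before the start): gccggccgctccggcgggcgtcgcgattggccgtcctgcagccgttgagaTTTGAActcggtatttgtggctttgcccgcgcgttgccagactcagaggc

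NCAPG (chr4:17810894-17810993, plus strand, from 35 bases before the start): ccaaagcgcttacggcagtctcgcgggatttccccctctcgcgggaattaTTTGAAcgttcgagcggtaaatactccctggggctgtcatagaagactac

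NCAPH (chr2:96335786-96335815, plus strand, from 32 bases after the start, with TTTAAA): cgacgcgcgcgaTTTAAAaccagctcagga

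NCAPD3 (chr11:134223948-134224020, minus strand, from 3 bases before the start): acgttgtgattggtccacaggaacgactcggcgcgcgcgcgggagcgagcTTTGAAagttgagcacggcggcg

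NCAPG2 (chr7:158704755-158704781, minus strand, from 35 bases after the start): ccggcgggtgcgTTTGAAtctggtccg

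The distances are those from the RefSeq start to the first capital letter. TTTGAA occurred in both shared ATPase genes, in 2 of 3 condensin I genes and in the 2 condensin II genes that had a window.

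Of the shared ATPases, SMC4 stood at 7800 and 7200 normalised reads in untreated CCNB1-negative cells, at 11808 and 12370 in untreated CCNB1-positive cells, at 1813 and 1851 in treated CCNB1-negative cells and at 11141 and 13943 in treated CCNB1-positive cells. The treated CCNB1-negative pair lay far below the other 6 libraries, and the treated CCNB1-positive libraries lay on either side of the untreated ones of their fraction. SMC2, its ATPase partner, stood in the same groups at 1251 and 1736, at 1523 and 2033, at 262 and 348, and at 876 and 1619 normalised reads. Its replicate 1 was the lower library in each of the 4 groups, and its replicates lay further apart than those of most other subunits, so that only the treated CCNB1-negative pair was apart from the rest.

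Among the condensin I subunits, the HEAT-repeat subunit NCAPD2 stood at 2446 and 2253 normalised reads in untreated CCNB1-negative cells, at 5721 and 5849 in untreated CCNB1-positive cells, at 744 and 722 in treated CCNB1-negative cells and at 3726 and 3578 in treated CCNB1-positive cells. NCAPG, the second HEAT-repeat subunit, stood in that order at 2078 and 1647, at 4041 and 4404, at 162 and 115, and at 2593 and 2709. The kleisin NCAPH stood at 1092 and 946, at 2059 and 2103, at 56 in both treated CCNB1-negative libraries (36 and 33 reads before scaling), and at 892 and 962. For NCAPD2 and NCAPG the 4 groups kept 1 order without overlap, highest in untreated CCNB1-positive cells and then in treated CCNB1-positive, untreated CCNB1-negative and treated CCNB1-negative cells. NCAPH differed from this order, since its treated CCNB1-positive libraries overlapped its untreated CCNB1-negative ones.

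The condensin II subunits showed another order. NCAPD3, the counterpart of NCAPD2, stood at 3347 and 3333 normalised reads in untreated CCNB1-negative cells, at 3619 and 3772 in untreated CCNB1-positive cells, at 394 and 356 in treated CCNB1-negative cells and at 1542 and 1602 in treated CCNB1-positive cells. NCAPG2, the counterpart of NCAPG, stood at 3196 and 2835, at 3600 and 3732, at 405 in both treated CCNB1-negative libraries, and at 2139 and 2227. NCAPH2, the counterpart of NCAPH, stood at 1784 and 1671, at 1905 and 1893, at 483 and 429, and at 1115 and 1132. In all 3 the untreated fractions lay close together, both treated groups lay below both untreated groups, and the treated CCNB1-negative pair was lowest.

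**Figure D1:**
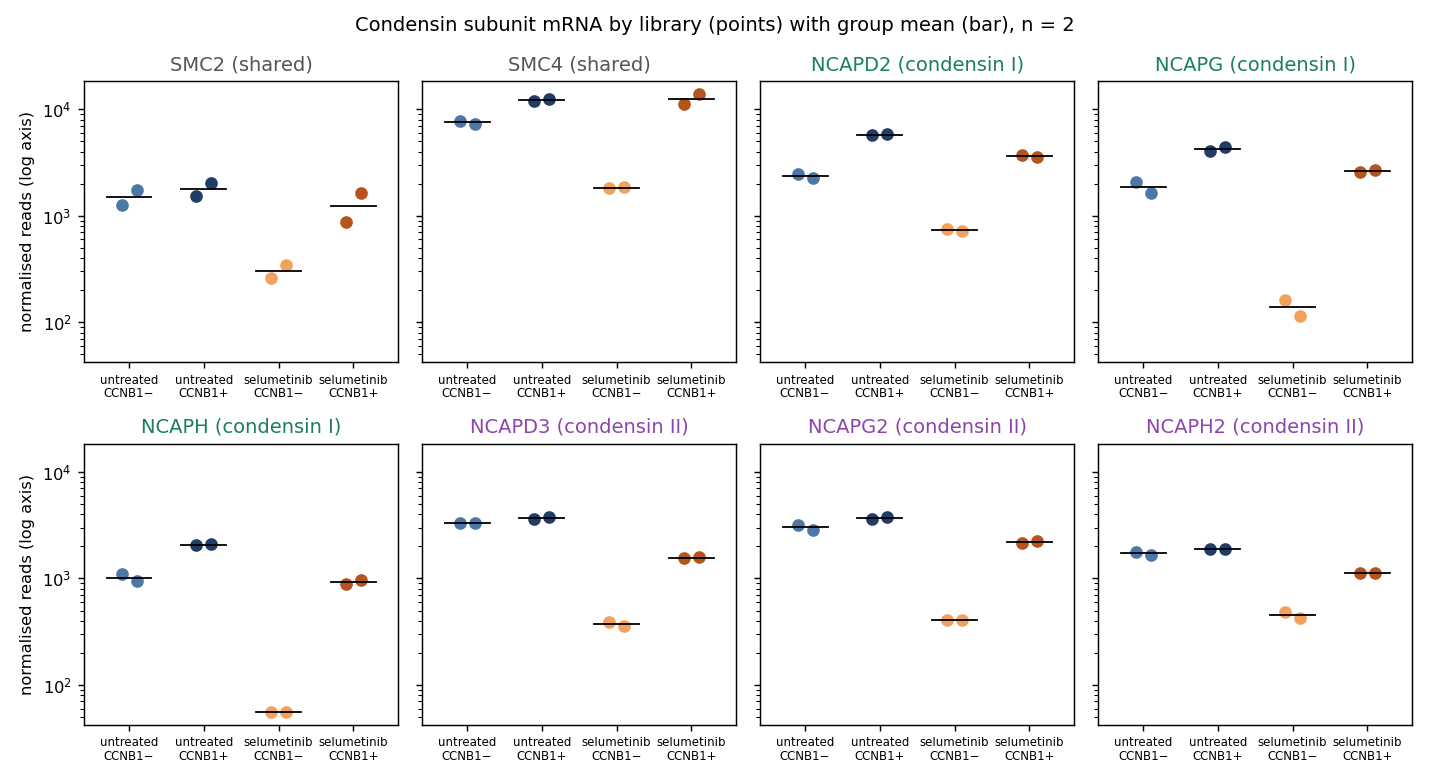
Normalised reads (log axis) of each condensin subunit in the 4 groups, with 1 point per library and a bar at the mean of the 2 libraries. The treated CCNB1-negative libraries are the lowest for all 8 genes, down to 56 normalised reads for NCAPH, and the condensin I subunits and SMC4 are higher in the CCNB1-positive than in the CCNB1-negative fraction of untreated cells.

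The response to selumetinib was first asked of CCNB1-negative cells. All 8 subunits fell. The kleisin and a HEAT-repeat subunit of condensin I fell furthest, NCAPH by 4.18 ± 0.16 (SE) on the log2 scale (adjusted p = 7.2e-10) and NCAPG by 3.76 ± 0.18 (adjusted p = 1.7e-09). They held the 17th and the 50th lowest change of all genes tested. Of condensin II, NCAPD3 fell by 3.16 ± 0.14 on the log2 scale (adjusted p = 9.2e-10), NCAPG2 by 2.89 ± 0.14 (adjusted p = 1.8e-09) and NCAPH2 by 1.92 ± 0.14 (adjusted p = 5.2e-08). The shared ATPases lay between NCAPG2 and NCAPH2, with SMC2 lower by 2.29 ± 0.26 (adjusted p = 2.8e-06) and SMC4 by 2.03 ± 0.16 (adjusted p = 8.2e-08), and these neighbours were not tested against each other. NCAPD2 had the smallest fall, of 1.68 ± 0.13 (adjusted p = 1.1e-07), so the largest and the smallest fall were both found within condensin I. The median log2 change was -2.59 over the 8 subunits and 0.05 over all genes tested. With an added requirement of a 4-fold change, NCAPD2 and NCAPH2 were not called and 6 of the 8 were, while 780 of the 14219 genes tested were called lower.

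In CCNB1-positive cells the same treatment lowered 6 of the 8 subunits. The condensin II subunit NCAPD3 and the condensin I kleisin NCAPH fell most, by 1.23 ± 0.14 (SE) on the log2 scale (adjusted p = 5.1e-06) and by 1.17 ± 0.16 (adjusted p = 2.4e-05). The falls of the other 4 were alike in size, with 40.8% for NCAPH2, 40.5% for NCAPG2, 37.2% for NCAPG and 36.9% for NCAPD2, at adjusted p-values from 0.00032 to 0.0045. SMC4 had a log2 change of 0.04 with a 95% interval of -0.29 to 0.38 (adjusted p = 0.81), so a rise or fall of up to about that size was not detectable with these libraries. SMC2 had a log2 change of -0.56 with an interval of -1.12 to -0.0027 (adjusted p = 0.072).

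Both of these calls rest on single libraries or on the scaling. SMC2 passed the test without treated CCNB1-positive replicate 2 (log2 change -1.01, adjusted p = 0.0045) and without untreated CCNB1-positive replicate 1 (-0.77, adjusted p = 0.038), within a range of adjusted p from 0.0062 to 0.16 over the other settings. SMC4 turned to -0.12 without treated CCNB1-positive replicate 2. With quantile normalization, which gives all libraries the same distribution, the log2 change of SMC4 was 0.64 (adjusted p = 0.0032) and that of NCAPG, at -0.42, no longer passed the test (adjusted p = 0.070). This scaling moved the median change of all genes in CCNB1-positive cells by -0.24 and scaling to the reads on genes moved it by 0.10, and relative to that median SMC4 changed by -0.12 as deposited and by 0.71 after quantile normalization. The other 5 subunits called lower, NCAPD2, NCAPH, NCAPD3, NCAPG2 and NCAPH2, were called lower under both scalings.

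**Figure D2:**
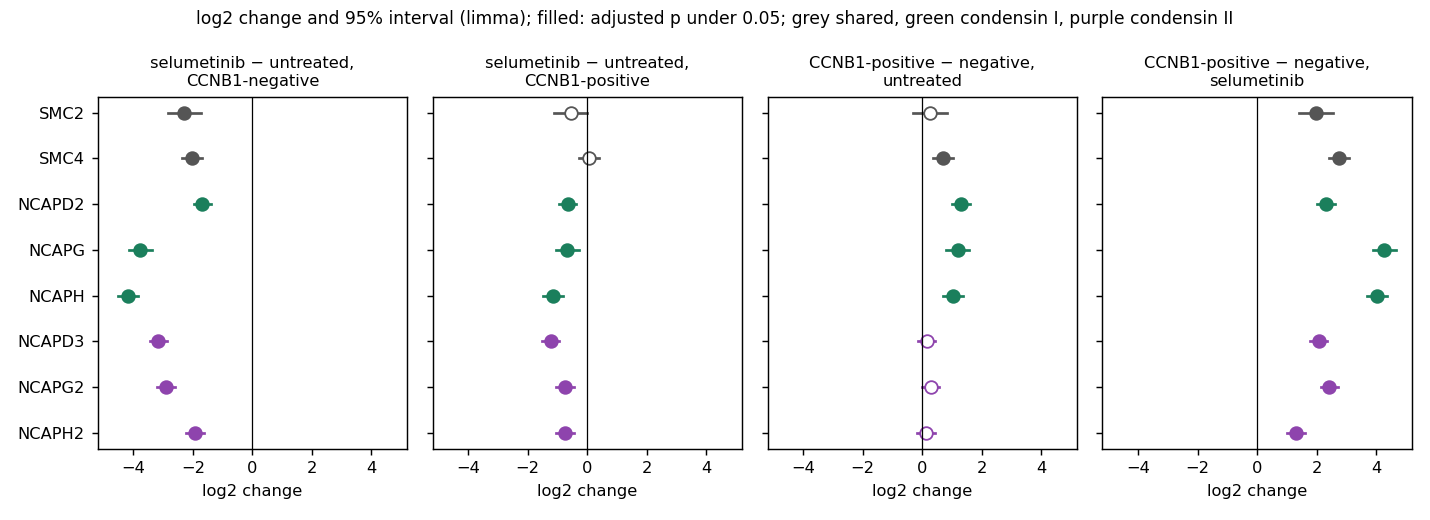
Log2 change of each subunit (points) with its 95% interval from limma (lines) in the 4 comparisons, filled where the adjusted p is under 0.05. All 8 points are filled in CCNB1-negative cells after selumetinib and between the treated fractions, 6 in CCNB1-positive cells after selumetinib, and 4 between the untreated fractions.

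The responses of the 2 fractions were then compared with each other by the interaction of treatment and fraction. All 8 subunits had a positive difference that passed the test, which means a smaller fall or no call in CCNB1-positive cells. A positive difference was called for 4.99% of all genes tested, and the median difference over all genes tested was 0.11. Among the subunits the difference was widest for NCAPG and NCAPH of condensin I. It was 3.09 ± 0.25 (SE) on the log2 scale for NCAPG (adjusted p = 4.6e-06) and 3.01 ± 0.22 for NCAPH (adjusted p = 4.1e-06). NCAPG2 at 2.15 (adjusted p = 9.5e-06), SMC4 at 2.08 (adjusted p = 3.1e-05), NCAPD3 at 1.92 (adjusted p = 2.0e-05) and SMC2 at 1.72 (adjusted p = 0.012) lay in between. It was narrowest for NCAPH2, at 1.17 ± 0.20 (adjusted p = 0.0022), and NCAPD2, at 1.02 ± 0.19 (adjusted p = 0.0046).

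Markers of the cell cycle were set beside these values. The normalised reads of 10 genes of G2 or mitosis, among them CDC20 and AURKA, summed to between 18537 and 20649 in untreated CCNB1-negative cells, 80703 and 86528 in untreated CCNB1-positive cells, 1561 and 2195 in treated CCNB1-negative cells and 44277 and 47744 in treated CCNB1-positive cells. The sums over 10 genes of late G1 or S phase, among them CCNE2 and MCM5, were 38736 and 41596, 19788 and 21150, 2743 and 2958, and 8751 and 9651 in the same order. From the untreated CCNB1-negative to the untreated CCNB1-positive fraction the 2 lists went in opposite directions. All 10 genes of G2 or mitosis were called higher there, as were 1.36% of all genes tested. Of the late G1 or S genes 9 were called lower, as were 214 of the 14219 genes tested, whereas no subunit was called lower. All genes of both lists had reads in every library, and all 10 of each list were called lower in CCNB1-negative cells after selumetinib, as were 35.8% of all genes tested. The treated CCNB1-negative fraction thus had the lowest sum of both lists. In the treated CCNB1-positive fraction all 10 genes of G2 or mitosis and 8 of late G1 or S phase were called higher. Of all genes tested, 13.8% were. The difference of responses was positive and called for all 10 genes of each list, as for 4.99% of all genes tested. The part of cell cycle stage in the changes of the subunits was not tested.

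**Figure D3:**
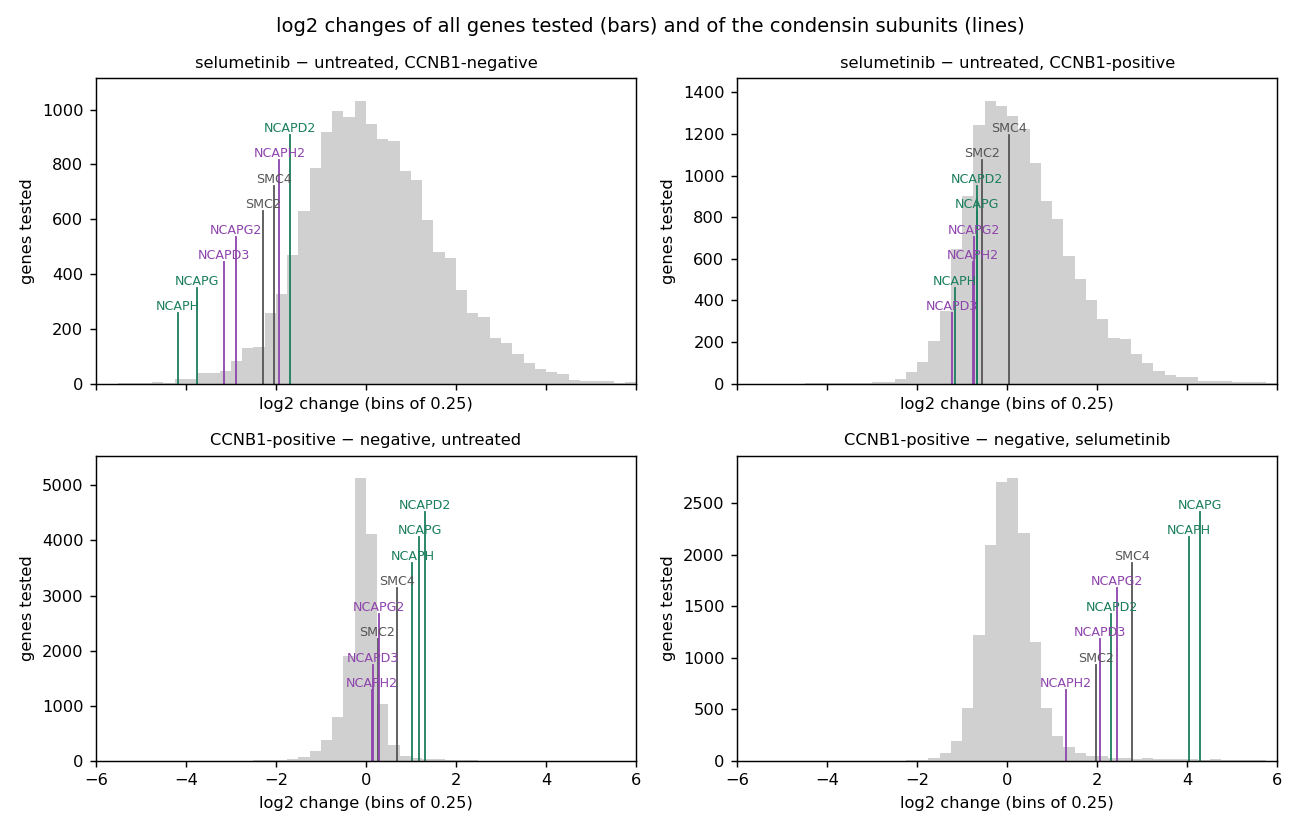
Number of genes tested by log2 change in bins of 0.25 (grey bars, values beyond 6 in the end bins) in the 4 comparisons, with a vertical line at each subunit (grey shared, green condensin I, purple condensin II). All 8 subunits lie left of the bulk of genes in CCNB1-negative cells after selumetinib and right of it between the treated fractions, and the line of SMC4 is within the bulk in CCNB1-positive cells after selumetinib.

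The comparison of the fractions within untreated cells asked which subunits go with cyclin B1 in the growing culture. Here the CCNB1-positive cells had more of 4 of the 8 subunits. They comprised all 3 of condensin I, with NCAPD2 higher by 1.30 ± 0.13 (SE) on the log2 scale (adjusted p = 4.1e-05), NCAPG by 1.19 ± 0.18 (adjusted p = 0.0013) and NCAPH by 1.03 ± 0.16 (adjusted p = 0.0014). SMC4 was higher by 0.69 ± 0.16 (adjusted p = 0.028). None of the condensin II subunits passed the test, at log2 changes of 0.28 for NCAPG2 (95% interval -0.01 to 0.58), 0.15 for NCAPD3 (-0.15 to 0.44) and 0.14 for NCAPH2 (-0.17 to 0.44), although the libraries of the 2 fractions did not overlap in any of the 3. These intervals leave room for rises of up to 1.49-fold and end below the lower bound of 1.62-fold for NCAPH, the condensin I subunit with the smallest rise, though the difference between subunits itself was not tested. SMC2 was at 0.26 (-0.30 to 0.82). The call of SMC4 was lost when any 1 of the 4 untreated libraries was left out, at log2 changes of 0.63 to 0.75 and adjusted p-values of 0.083 to 0.24, and with quantile normalization (0.59, adjusted p = 0.088), while its adjusted p ranged from 0.00019 to 0.091 over the settings with all libraries.

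Among treated cells all 8 subunits were higher in the CCNB1-positive fraction. NCAPG was higher by 4.28 ± 0.18 (SE) on the log2 scale (adjusted p = 5.4e-10) and NCAPH by 4.04 ± 0.16 (adjusted p = 3.4e-10), the 44th and the 60th highest change of all genes tested. SMC4 was higher by 6.80-fold, NCAPG2 by 5.39-fold, NCAPD2 by 4.98-fold, NCAPD3 by 4.20-fold, SMC2 by 3.94-fold and NCAPH2 by 2.47-fold, at adjusted p-values of at most 0.00011. The order differed from that of the untreated fractions, where NCAPD2 led and NCAPG2 and NCAPD3 were not called.

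Each condensin I subunit was then set against its condensin II counterpart within each library, which takes out the scaling. The log2 ratio of NCAPD2 to NCAPD3 reads was -0.45 and -0.56 in untreated CCNB1-negative cells, 0.66 and 0.63 in untreated CCNB1-positive cells, 0.92 and 1.02 in treated CCNB1-negative cells and 1.27 and 1.16 in treated CCNB1-positive cells. This ratio was above the untreated value of the same fraction in both treated groups. The ratio of the kleisins NCAPH to NCAPH2 moved the other way, from -0.71 and -0.82 to -3.10 and -2.94 in CCNB1-negative cells and from 0.11 and 0.15 to -0.32 and -0.23 in CCNB1-positive cells. NCAPG against NCAPG2 went from -0.62 and -0.78 to -1.32 and -1.81 in CCNB1-negative cells and was 0.17 and 0.24 untreated and 0.28 and 0.28 treated in CCNB1-positive cells. The groups named did not overlap in these ratios, but the changes of ratio are a description, since no model was fitted to the ratios and an exact permutation test of 2 against 2 libraries cannot give a p below 0.333.

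**Figure D4:**
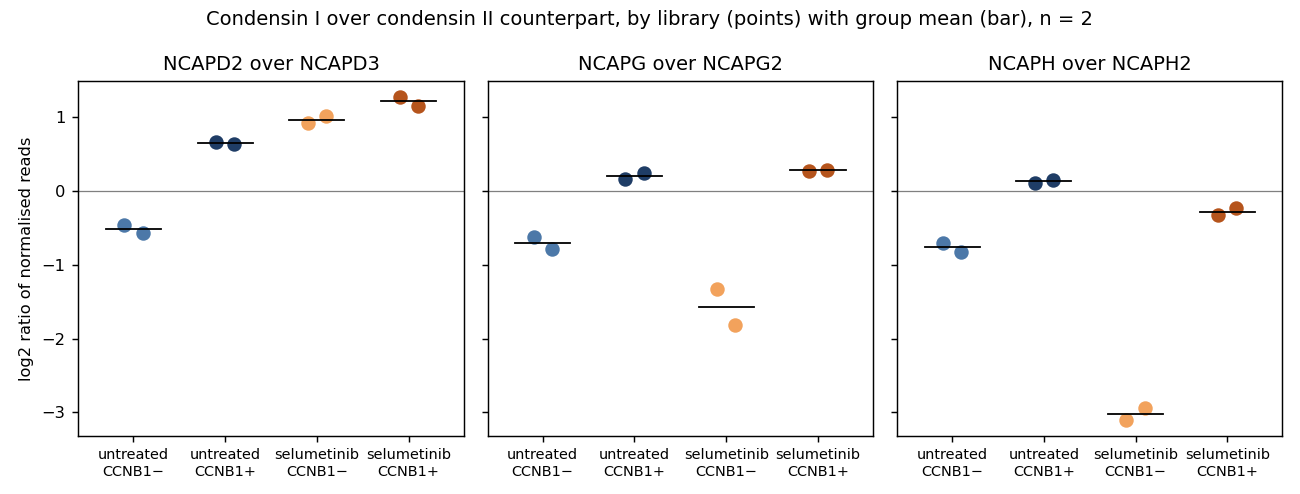
Log2 ratio of normalised reads of each condensin I subunit over its condensin II counterpart, with 1 point per library and a bar at the mean of the 2 libraries of a group. NCAPD2 over NCAPD3 is higher in treated than in untreated cells of both fractions, and NCAPH over NCAPH2 stands at about -3 in treated CCNB1-negative cells.

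Summed per kilobase of canonical transcript, the 3 condensin I subunits made up 39.1% and 37.3% of all 6 in untreated CCNB1-negative cells, 55.2% and 55.8% in untreated CCNB1-positive cells, 40.0% and 39.9% in treated CCNB1-negative cells and 58.1% and 57.4% in treated CCNB1-positive cells. The share thus split by fraction, with no overlap, and lay within 3 percentage points between treated and untreated cells of a fraction. Per kilobase of merged exons the shares were 48.6% and 46.7% untreated and 45.7% and 45.5% treated in CCNB1-negative cells. In CCNB1-positive cells they were 64.3% and 65.0% untreated and 66.3% and 65.8% treated. The direction of the shift with treatment in CCNB1-negative cells thus depended on the length used. A similar share does not mean that the subunits kept their balance, since NCAPD2 to NCAPD3 and NCAPH to NCAPH2 moved in opposite directions.

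Levels of different subunits were compared per kilobase. With the length of all merged exons, SMC4 was the highest subunit in all 4 groups, at 919 ± 52.0 (SD, n = 2) normalised reads per kilobase in untreated CCNB1-negative, 1481 ± 48.7 in untreated CCNB1-positive, 224 ± 3.36 in treated CCNB1-negative and 1536 ± 243 in treated CCNB1-positive cells. The second place was held by NCAPG2 in untreated CCNB1-negative cells, at 424 ± 35.9, and by NCAPD2 in the other 3 groups, at 894 ± 13.9, 113 ± 2.36 and 564 ± 16.2. At the low end stood NCAPH in CCNB1-negative cells, at 156 ± 15.8 untreated and 8.59 ± 0.059 treated, and NCAPD3 in CCNB1-positive cells, at 198 ± 5.77 untreated and 84.1 ± 2.27 treated. The treated NCAPH value rests on 36 and 33 reads before scaling, and the SD of 2 such libraries does not measure its counting error. The place of NCAPD3 depended on the length used, which is 18698 bases over merged exons, 10474 in its longest transcript and 7369 in its canonical transcript. With the longest transcript NCAPD3 was at place 6 in untreated and at place 8 in treated CCNB1-positive cells. With the canonical transcript it stood at 501 ± 14.6 and 213 ± 5.75 normalised reads per kilobase in the CCNB1-positive groups, at the sixth place in both. In the treated group its libraries overlapped those of SMC2, the next lower subunit. By this length 20 of the 32 places over 8 genes and 4 groups were as with merged exons.

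By merged exons, several neighbours in the order could not be told apart by their libraries. In untreated CCNB1-negative cells NCAPG2, NCAPH2, NCAPG and NCAPD2 each overlapped the next. NCAPD2 and NCAPG overlapped in both CCNB1-positive groups, as did NCAPH2, SMC2 and NCAPH in treated CCNB1-positive cells. All 7 neighbouring pairs were apart in treated CCNB1-negative cells.

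**Figure D5:**
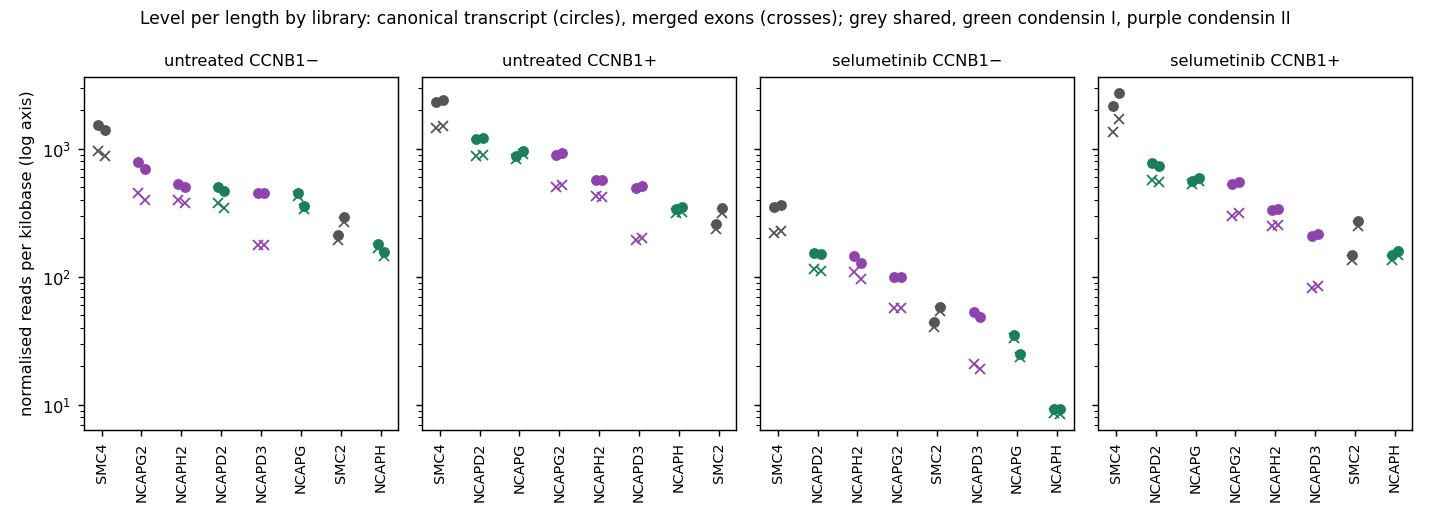
Normalised reads per kilobase (log axis) of the subunits in each group, ordered by the level per canonical transcript, with circles for the canonical transcript and crosses for merged exons, 1 per library (grey shared, green condensin I, purple condensin II). SMC4 is highest in every group, and NCAPD3 has the widest gap between circles and crosses.

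The partners and regulators of condensin were described as a list of 13 genes, all of which were tested. In CCNB1-negative cells 10 fell and 1 rose after selumetinib, with a median log2 change of -2.56, and in CCNB1-positive cells 8 fell and 1 rose, with a median of -0.65. Of all genes tested, 35.8% fell and 38.2% rose in the first fraction, and 27.3% fell and 38.0% rose in the second. TOP2A, the topoisomerase that untangles sister chromatids in mitosis, fell by 2.56 ± 0.21 (SE) on the log2 scale in CCNB1-negative cells (adjusted p = 1.3e-07) and had a change of 0.12 in CCNB1-positive cells (adjusted p = 0.62, and 0.71 with a call after quantile normalization). KIF4A, a chromokinesin that binds condensin I, fell by 2.85 ± 0.15 in CCNB1-negative cells (adjusted p = 4.2e-09) and had a change of -0.01 in CCNB1-positive cells. Like SMC4, these 2 were called lower in CCNB1-negative cells and not in CCNB1-positive ones.

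The mitotic kinases that act on condensin, CDK1, PLK1 and AURKB, fell in both fractions, at log2 changes of -4.17, -3.32 and -3.41 in CCNB1-negative and -1.03, -1.36 and -0.52 in CCNB1-positive cells, though the last was not called under quantile normalization or when scaled to the reads on genes. MKI67, which coats mitotic chromosomes, fell by 3.33 and by 0.65, the second of which was also lost with quantile normalization. MCPH1, which restrains condensin II in interphase, was the 1 gene of the list called higher, by 1.65 ± 0.17 (adjusted p = 1.4e-06) in CCNB1-negative and 1.17 ± 0.17 (adjusted p = 5.7e-05) in CCNB1-positive cells. SET, a histone chaperone, fell by 2.07 and 1.54, TOP2B, the topoisomerase of interphase cells, by 0.58 and 0.71, and CSNK2A2, a catalytic subunit of casein kinase 2, by 0.88 and 0.65. The other catalytic subunit, CSNK2A1, at 0.25 and -0.16, and AKAP8, a nuclear anchoring protein that recruits condensin, at -0.03 and 0.05, did not pass the test, though CSNK2A1 was called higher in CCNB1-negative cells, at 0.50 and 0.39, under quantile normalization and scaling to the reads on genes.

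Untreated CCNB1-positive cells had more of 7 of the 13 than untreated CCNB1-negative cells, and more of 1.36% of all genes tested. Among the 7 were CCNB1, by whose protein the cells were sorted, PLK1 at 2.67 ± 0.20 (SE) on the log2 scale and TOP2A at 2.38 ± 0.21. The same comparison in treated cells called 8 higher and 1, MCPH1, lower by 0.69 ± 0.17. Of all genes tested it called 13.8% higher and 7.87% lower. The difference of responses was positive and called for 7 of the 13 and for 4.99% of all genes tested. In the 7 it ran from 1.96 for PLK1 (adjusted p = 0.00051) to 3.14 for CDK1 (adjusted p = 3.9e-05).

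Cohesin and SMC5/6 are the other complexes built on SMC proteins. Of the 5 cohesin core genes, whose ring holds sister chromatids together, SMC1A, SMC3 and RAD21 fell in both fractions, at log2 changes of -2.08, -1.62 and -2.19 in CCNB1-negative and -1.20, -0.82 and -0.84 in CCNB1-positive cells, though RAD21 in CCNB1-positive cells was at -0.26 and not called after quantile normalization. STAG1 rose by 1.09 and 0.80, and its paralog STAG2, at -0.12 and -0.15, did not pass the test. None of the 5 differed between the untreated fractions at this threshold, where their log2 changes ran from -0.10 to 0.42, and the difference of responses was called for RAD21, at 1.35, and SMC1A, at 0.88. The median log2 change was -1.62 for cohesin and -2.59 for condensin in CCNB1-negative cells, and -0.82 and -0.71 in CCNB1-positive cells, and the difference between the complexes was not tested.

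The 6 genes of the SMC5/6 complex, which acts on joined DNA molecules in repair, split in direction. NSMCE2, its SUMO ligase, rose by 1.92 ± 0.18 (SE) on the log2 scale in CCNB1-negative cells and by 1.48 ± 0.18 in CCNB1-positive cells, whereas NSMCE3 fell by 1.60 and 0.95 and NSMCE4A by 1.07 and 0.49. SMC6, at -0.49, and NSMCE1, at -0.34, were called lower in CCNB1-negative cells alone and lost the call under quantile normalization and scaling to the reads on genes. SMC5 was at -0.08 and 0.26, without a call. No difference of responses was called among the 6, where the log2 values ran from -0.44 to 0.65.

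For each subunit, the genes whose pattern over the 8 libraries was nearest were found by the root mean square of the log2 difference between the centred profiles, as a description over 4 groups. NCAPG was nearest to BIRC5, at 0.16, then to ARHGAP11A at 0.18 and MKI67 at 0.19, and NCAPH to ERCC6L at 0.24, CCNA2 at 0.26 and CENPW at 0.26. NCAPD2 was nearest to REEP4, CKAP5 and RANGAP1, at 0.13 to 0.15. BIRC5 encodes survivin of the chromosomal passenger complex, and CCNA2 is cyclin A2. The condensin II subunits had other neighbours, namely DTYMK, RAD54L and CENPN for NCAPG2, at 0.11 to 0.15, BTG3, RRM1 and LRR1 for NCAPD3, at 0.15 to 0.16, and LSM4, NUP50 and PPIH for NCAPH2, at 0.083 to 0.098. RRM1 and DTYMK make nucleotides for DNA synthesis, and LSM4 and PPIH belong to the splicing machinery. SMC4 was nearest to CENPJ, POC1A and PARPBP, at 0.17 to 0.20, and SMC2 to C1orf112, MIS18A and DBF4, at 0.24 to 0.27. Among the subunits themselves the nearest pairs were NCAPD3 with NCAPG2, at 0.24, and NCAPG with NCAPH, at 0.28.

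Some of the subunits share exons with other genes, and whether the counting used the strand is not given in the sources used here. How far reads of such a pair were mixed was not tested. NCAPG shares 1634 exon bases with LCORL on the other strand, which had 724 to 864 normalised reads in untreated and 1852 to 2809 in treated libraries. The treated CCNB1-negative libraries, where NCAPG had 162 and 115, had 1911 and 2809 of LCORL. From untreated CCNB1-negative to untreated CCNB1-positive cells, NCAPG went from 2078 and 1647 to 4041 and 4404, and LCORL from 788 and 724 to 864 and 803. SMC4 shares 1553 with TRIM59, at 97 to 484 normalised reads, and 243 with IFT80, at 440 to 1654, both far below SMC4 except for IFT80 in treated CCNB1-negative cells, at 1536 and 1456. NCAPD2 shares 383 with MRPL51, at 1097 to 5671, NCAPD3 shares 1889 with JAM3, at 1 to 6, and 249 with VPS26B, at 873 to 1272, and NCAPH2 shares 857 with SCO2, at 176 to 383, and 855 with the lncRNA U62317.2 on its own strand, at 14 to 63. The values of JAM3 can thus hold few reads of NCAPD3, which had 356 to 3772. MRPL51 was above NCAPD2 in untreated CCNB1-negative cells, at 4264 and 5526 against 2446 and 2253. It was also above NCAPD2 in treated CCNB1-negative cells, at 1761 and 1097 against 744 and 722. VPS26B was above NCAPD3 in treated CCNB1-negative cells alone, at 1262 and 873 against 394 and 356. SMC2, NCAPH and NCAPG2 overlap no other annotated gene in GENCODE 44.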

How the data were processed

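After trimming in Trim Galore 0.5.0 and alignment to GRCh38 by HISAT2 2.1.0, the authors counted reads per gene in SeqMonk 1.47.0 and deposited log2 values normalised to the total read count, with 1 column per library. The libraries were made with a directional poly(A) kit. The annotation release and the strand setting of the counting are not given in the sources used here. Per the values, 2 raised to a deposited value gives reads scaled to the largest library, called normalised reads here, and genes without a read stand at 0.9 reads. Whole reads were recovered for 100% of values above this floor (within 0.01 reads or 1e-05 of the value), and reads on genes numbered 12696860 to 23916160 per library. Counting error is the only error such depth bounds. The 2 libraries of each group differed beyond sampling noise, with a chi-square per gene of 15.6 to 30.2 over genes with at least 10 reads, and were kept apart. All 8 value columns were used.

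Groups follow the short descriptions. Genes averaging 1 RPM or more, in reads per library size, were tested (14219 genes, all 8 subunits among them) with limma 3.58.1 in R 4.3.3, with a mean-variance trend and 1 coefficient per group, on the deposited log2 values. Benjamini-Hochberg adjustment ran over these genes, and an adjusted p under 0.05 was a call. The design had allowed for counts or linear values, and the part for log2 values was used. The authors tested with DESeq2 in SeqMonk. The labels do not say that the 2 libraries of a group came from separate cultures, so p-values measure only the spread between these libraries. The growth medium in the labels is not that of the methods.

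Named genes are the 8 subunits, the lists of 13 partners and of 5 cohesin and 6 SMC5/6 genes, given by counts with values for those that bear on a statement, and the 3 tested genes with a symbol nearest in pattern to each subunit. The partner list had 1 further gene, which is not reported here. The members and lists were chosen with earlier results of these data known. The genes that overlap a subunit were named after their values were seen. Lengths and overlaps came from GENCODE 44, in which 99.3% of gene identifiers were found. Promoter windows came from RefSeq (GRCh38.p14).

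Alternatives were an adjusted p of 0.01, a 4-fold requirement, no filter and a filter of 10 RPM, a pseudocount of 0.1 RPM, quantile normalization, replicate blocks, only the groups compared, limma-voom on the recovered reads, the longest transcript as length, and leaving out each library. Scaling to the reads on genes and the canonical transcript length were added after seeing the data. On simulated reads of 14219 genes for the response of CCNB1-negative cells, with 200 genes changed, limma found 99% of the 4-fold changes and 52% of those of 2-fold, and 6 of 157 calls were false. The spread between simulated libraries was assumed, and the real comparison called 10530 genes, so these rates check the method and need not hold for these data. Python 3.11.15 with pandas 2.3.3, numpy 2.4.6, scipy 1.17.1 and matplotlib 3.10.9 did the rest.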

Additional observations from a re-analysis of the deposited data

Results flagged for a closer look

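The response to selumetinib differed between the CCNB1-negative and CCNB1-positive fractions for all 8 condensin subunits by the interaction term of limma with Benjamini-Hochberg adjustment, which 4.99% of all genes tested passed in the same direction. With a block of treatment and replicate number, 2739 of the 14219 genes tested passed in this direction, against 709 without a block. The difference, positive minus negative fraction on the log2 scale, was 3.09 for NCAPG (adjusted p = 4.6e-06), 3.01 for NCAPH (adjusted p = 4.1e-06), 2.15 for NCAPG2 (adjusted p = 9.5e-06), 2.08 for SMC4 (adjusted p = 3.1e-05), 1.92 for NCAPD3 (adjusted p = 2.0e-05), 1.72 for SMC2 (adjusted p = 0.012), 1.17 for NCAPH2 (adjusted p = 0.0022) and 1.02 for NCAPD2 (adjusted p = 0.0046). The treated CCNB1-negative libraries were below all the others for each subunit.

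Among the partners and regulators, the same difference was 3.14 for CDK1, 2.99 for CCNB1, by whose protein the cells were sorted, 2.90 for AURKB, 2.84 for KIF4A, 2.69 for MKI67, 2.68 for TOP2A and 1.96 for PLK1, with adjusted p-values of at most 0.00051. In cohesin it was 1.35 for RAD21 (adjusted p = 0.0053) and 0.88 for SMC1A (adjusted p = 0.022). All of these had the sign of the condensin subunits, and the part of cell cycle stage in them was not tested.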

How the results depend on the processing

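The number of subunits called changed most with a 4-fold requirement, to 6 in CCNB1-negative cells, 0 in CCNB1-positive cells, where the largest change in limma was a fall of 1.23 on the log2 scale, 0 between untreated fractions, 6 between treated fractions and 4 for the difference of responses. It was otherwise 8, 6 or 7, 3 or 4, 8, and 7 or 8 in these comparisons. SMC4 in CCNB1-positive cells reversed to -0.12 without treated CCNB1-positive replicate 2 and reached 0.21 without replicate 1 of that group. All genes called went from 10530, 9288, 408, 3077 and 758 to 2309, 1318, 54, 250 and 240 with 4-fold, and to 217, 1338 and 426 in the last 3 at 0.01. Quantile normalization called 244 between untreated fractions, and moved the share called higher from 58.1% to 47.5% in CCNB1-positive cells, from 47.5% to 64.8% and from 63.6% to 47.9% between untreated and treated fractions, and from 93.5% to 70.9% for the difference. With limma-voom the share between treated fractions was 50%. Leaving out 1 library gave 9262 to 10425, 7293 to 9707, 224 to 455, 1156 to 4279 and 489 to 1806 genes, and 8, 6 to 7, 3 to 4, 8 and 8 subunits, with a lone library assumed to vary like the rest. Replicate numbers are not said to pair libraries, and same-numbered libraries deviated together only within a treatment, at correlations of 0.35 and 0.43 against -0.09 to 0.08 across treatments. The replicate number as a block called 10890, 9764, 500, 3741 and 883 genes and, of the subunits, added SMC2 in CCNB1-positive cells (-0.56, adjusted p = 0.0062). A block of treatment and replicate number called 1923, 6671 and 3850 genes in the last 3 comparisons and the same number of subunits. Of the 14219 genes tested, this block called 675, 3845 and 2739 higher, against 194, 1958 and 709 without a block. The shares of all genes called higher that are given for these 3 comparisons are those without a block. The place per kilobase was as with merged exons in 23 of 32 cases with the longest and 20 with the canonical transcript. The cause of these changes was not tested.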
